A study of Homo sapiens with 6 samples.

Results

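The CCR4-NOT complex shortens the poly(A) tails of messenger RNAs in the cytoplasm. This account follows the mRNA of 10 of its subunits, CNOT1, CNOT2, CNOT3, CNOT4, CNOT6, CNOT6L, CNOT7, CNOT8, CNOT10 and CNOT11, through 6 libraries of A172 cells, a human glioblastoma line. The subunits were taken by gene symbol from 20979 symbols listed in any library, and all 10 were listed in every library. CNOT6 was singled out among them, and the set named for it, selected on its lower TPM with the 3p.1 duplex in an earlier look at these data, so its differences from the 3p.1 duplex are given as a description and were not tested. There were 2 libraries of cells given the miR-324-5p duplex, called the 5p duplex here, 2 of cells given the miR-324-3p.1 duplex, called the 3p.1 duplex, and 2 of cells given a control microRNA. All groups were transfected with the same lipid reagent, and RNA was taken after 1 day. The labels give neither the dose nor the sequence of a duplex, and they leave unsaid whether replicates came from separate cultures. The p-values therefore reflect the spread between these libraries alone, which may be technical.

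CCR4-NOT is built on the scaffold CNOT1. It carries a pair of nucleases, a Caf1-type enzyme (CNOT7 or CNOT8) that binds CNOT1 and a Ccr4-type enzyme (CNOT6 or CNOT6L) that is held through the Caf1-type partner. A microRNA guides an Argonaute protein to a target, the GW182 proteins bound to Argonaute recruit CCR4-NOT, and loss of the tail is followed by decapping and decay.

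The microRNA sequences are shown because they set the sites looked for in the subunits. Both come from RefSeq (GRCh38.p14), on the minus strand of chromosome 17, with the seed (bases 2 to 8) in capitals.
hsa-miR-324-5p, chr17:7223343-7223364: cGCAUCCCcuagggcauuggug
hsa-miR-324-3p, chr17:7223308-7223330: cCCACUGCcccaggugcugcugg
The 5p seed pairs with GGGATGC. Because the start of the 3p.1 strand is not in the labels, 3 starts of the 3p arm were used. The seed at the RefSeq start pairs with GCAGTGG, that of a start 1 base later with GGCAGTG, and that of a start 3 bases later with GGGGCAG.

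CNOT6 was lower with the 3p.1 duplex than in every other library. CNOT6 (ENSG00000113300.11, GRCh38 chr5:180494412-180578405, plus strand), a Ccr4-type deadenylase, stood at 66.32 and 59.15 TPM with the 5p duplex, at 32.56 and 33.70 TPM with the 3p.1 duplex and at 58.53 and 65.41 TPM in control. The 3p.1 duplex libraries were the lowest of the 6, and the 5p duplex libraries overlapped with the controls. TPM is a level scaled by transcript length and library size, so levels of different subunits can be set side by side. The group means were 62.7 ± 5.07 TPM with the 5p duplex, 33.1 ± 0.806 TPM with the 3p.1 duplex and 62.0 ± 4.86 TPM in control (SD, n = 2 each). The 3p.1 duplex mean was thus 46.5% below control and 47.2% below the 5p duplex, and the higher 3p.1 duplex library reached 0.576 of the lowest of the other 4. In bulk RNA, fewer cells that express a gene and less of its RNA per cell cannot be told apart.

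**Figure D1:**
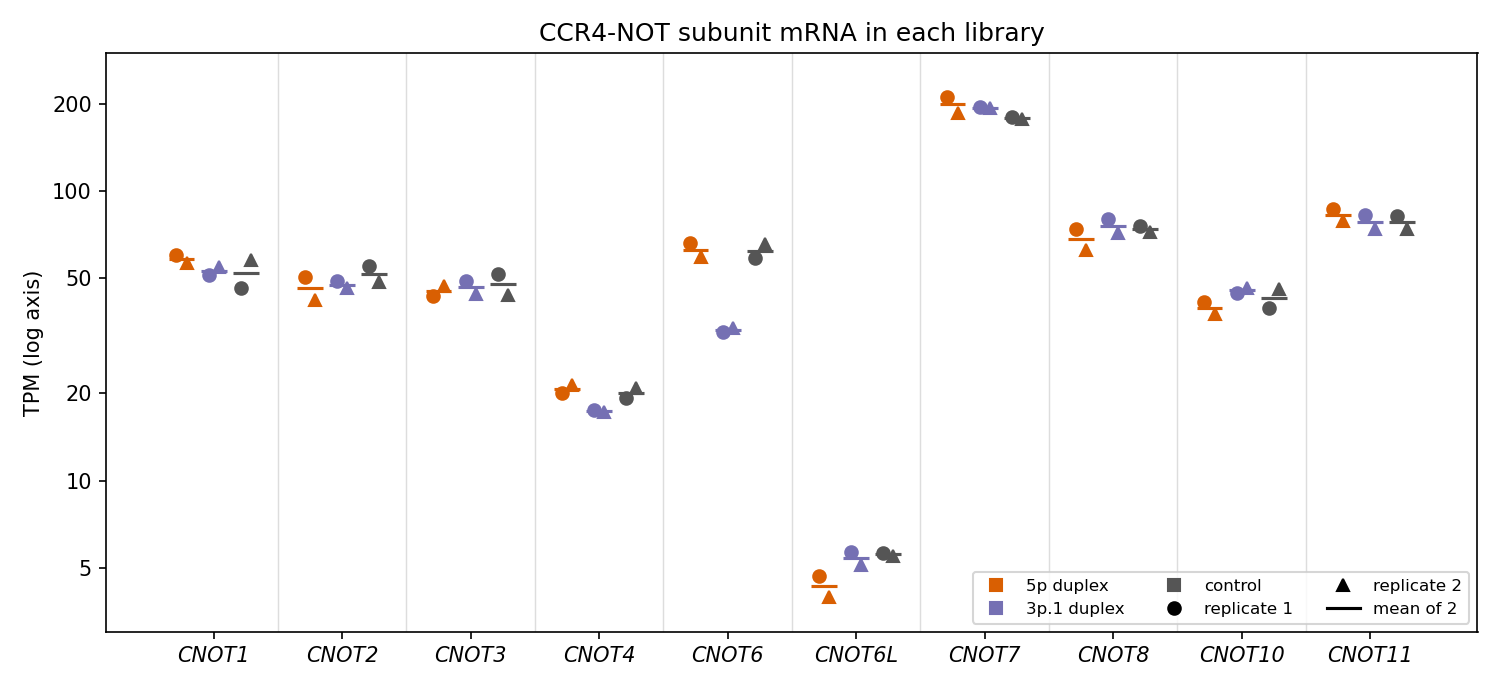
TPM on a log axis of the 10 subunits in each of 6 libraries; circles are replicate 1, triangles replicate 2, and bars the mean of 2. CNOT6 lies at 32.56 and 33.70 TPM in the 3p.1 duplex libraries and between 58.53 and 66.32 TPM in the other 4, while the other 9 subunits stay close together over the groups.

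On the log2(TPM + 1) scale, which is used for all fold changes here and understates the change of low genes, CNOT6 differed by -0.88 between the 3p.1 duplex and control and by 0.90 between the 5p and 3p.1 duplexes. These comparisons share the 3p.1 duplex libraries. Among 13400 genes tested, CNOT6 had the 118th lowest fold change with the 3p.1 duplex against control. Between the 5p duplex and control the difference was 0.017 (95% interval -0.23 to 0.27, limma adjusted p = 0.978), and its sign turned in the fit without control replicate 1 (-0.062) and in that without 5p duplex replicate 1 (-0.064).

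Calls were made with limma over all 13400 genes at a Benjamini-Hochberg adjusted p under 0.05. Of the 9 subunits other than CNOT6, 0 were called with the 5p duplex against control, where 0.463% of all genes were called, 0.425% lower and 0.0373% higher. With the 3p.1 duplex against control 0 of the 9 were called, beside 0.0149% of all genes, which is 2 genes, 0.00746% lower and 0.00746% higher. Between the 5p and 3p.1 duplexes 0 of the 9 were called, beside 0.433% of all genes, 0.351% lower and 0.0821% higher. At an unadjusted p under 0.05 in limma the count of the 9 was 0 in each comparison as well, beside 9.16% of all genes with the 5p duplex against control, 6.86% with the 3p.1 duplex against control and 9.34% between the duplexes. CNOT6 is left out of these counts because it was chosen on the values that 2 of the 3 comparisons use. Without 1 library at a time, its difference ran from -0.96 to -0.80 with the 3p.1 duplex against control and from 0.82 to 0.98 between the duplexes. As both its 3p.1 duplex libraries were the lowest, no such fit could turn the sign.

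Sites for the 3p words are shown for CNOT6 and for its paralog CNOT6L because CNOT6 stood lower with the 3p.1 duplex than in control while the levels of CNOT6L overlapped. They lie in the longest 3′UTR annotated by GENCODE 29 on GRCh38, 4205 nt in CNOT6 and 7044 nt in CNOT6L, and are printed as 30 bases of the transcript strand with the match in capitals. A match is to the 7 bases of a word (7mer-m8), to its last 6 followed by A (7mer-A1), or to all 7 followed by A (8mer).
CNOT6, GGGGCAG word, 7mer-m8, chr5:180576494-180576500, plus strand: tatttgaatttGGGGCAGcatattaagatg
CNOT6, GCAGTGG word, 7mer-A1, chr5:180577849-180577855, plus strand: actgttctgttCAGTGGAaccttcttggtc
CNOT6L, GGCAGTG word, 8mer, chr4:77719155-77719162, minus strand: gtgactcaagaGGCAGTGAacagaatactg
CNOT6L, GGCAGTG word, 8mer, chr4:77717635-77717642, minus strand: tttggaactttGGCAGTGAgaagccaaaag
CNOT6L, GGGGCAG word, 7mer-m8, chr4:77719356-77719362, minus strand: agaacaaatttGGGGCAGtagttgaaaacg
CNOT6 held no 8mer of any of the 3 words, while CNOT6L held 2 of GGCAGTG. Long 3′UTRs often hold such words. Among 594 genes with a 3′UTR within 10% of the length of that of CNOT6, 48.5% held a 7mer or 8mer of GGGGCAG and 63.5% one of GCAGTGG. Among 232 genes near the length of CNOT6L, 16.8% held 1 or more 8mers of GGCAGTG, and 59.9% held a 7mer or 8mer of GGGGCAG. The share of genes with 2 such 8mers was not counted. A match describes letters in the annotated 3′UTR, and binding was not measured.

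CNOT6L (chr4:77713387-77819615, minus strand), the other Ccr4-type enzyme, was the scarcest subunit. It stood at 4.68 and 3.97 TPM with the 5p duplex, at 5.67 and 5.10 TPM with the 3p.1 duplex and at 5.64 and 5.47 TPM in control. The 5p duplex libraries were the lowest of the 6, and those of the 3p.1 duplex overlapped with the controls. CNOT6L differed by -0.30 with the 5p duplex against control (SE 0.134, 95% interval -0.63 to 0.019, limma adjusted p = 0.576) and by -0.039 with the 3p.1 duplex against control (SE 0.134, 95% interval -0.36 to 0.28, limma adjusted p = 0.989). The sign for the 3p.1 duplex turned with quantile normalization (0.076).

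CNOT6 made up most of the Ccr4-type mRNA in every group. Its share of the summed CNOT6 and CNOT6L level was 93.4% and 93.7% with the 5p duplex, 85.2% and 86.9% with the 3p.1 duplex and 91.2% and 92.3% in control. The sum of both was 71.0 and 63.1 TPM with the 5p duplex, 38.2 and 38.8 TPM with the 3p.1 duplex and 64.2 and 70.9 TPM in control. The 3p.1 duplex libraries were lowest in both measures, which follow from the CNOT6 values.

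**Figure D2:**
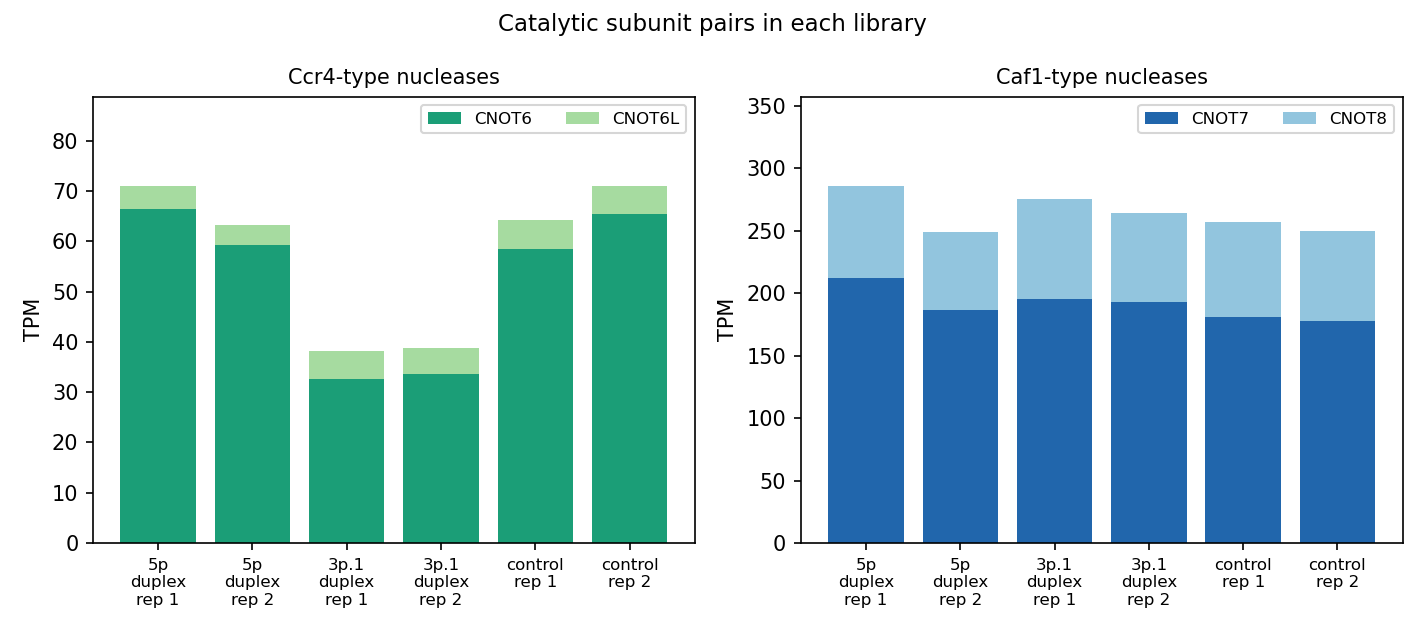
Stacked TPM of the Ccr4-type pair (CNOT6 below, CNOT6L above) and of the Caf1-type pair (CNOT7 below, CNOT8 above) in each library. The Ccr4-type sum is 38.2 and 38.8 TPM with the 3p.1 duplex and at least 63.1 TPM in the other 4 libraries, and the Caf1-type sum lies between 249 and 286 TPM throughout.

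The Caf1-type enzymes were the more abundant nucleases. CNOT7 (chromosome 8), the most abundant of the 10 subunits, stood at 211.90 and 186.77 TPM with the 5p duplex, at 195.34 and 192.97 TPM with the 3p.1 duplex and at 181.02 and 177.72 TPM in control. Both duplex groups lay above the controls without overlap, by 0.15 with the 5p duplex (SE 0.0914, 95% interval -0.072 to 0.37, limma adjusted p = 0.721) and by 0.11 with the 3p.1 duplex (SE 0.0914, 95% interval -0.11 to 0.33, limma adjusted p = 0.902), and neither passed the threshold. These comparisons share the controls.

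CNOT8 (chr5:154857553-154876793, plus strand), its paralog, stood at 74.11 and 62.43 TPM with the 5p duplex, at 80.29 and 71.40 TPM with the 3p.1 duplex and at 75.66 and 72.11 TPM in control. All groups overlapped. CNOT8 was 25.9% and 25.1% of the summed CNOT7 and CNOT8 level with the 5p duplex, 29.1% and 27.0% with the 3p.1 duplex and 29.5% and 28.9% in control. CNOT6 and CNOT7 are thus the main member of their pair in these cells under all 3 treatments. CNOT7 has processed pseudogenes, as do CNOT6L and CNOT4, and none of the 4 annotated ones was listed in any library; reads shared with them would make these levels uncertain.

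The scaffold and the NOT module, in which CNOT2 and CNOT3 pair on the C-terminal part of CNOT1, showed no call. CNOT1 (chr16:58519951-58629886, minus strand) stood at 60.02 and 56.45 TPM with the 5p duplex, at 51.23 and 54.50 TPM with the 3p.1 duplex and at 46.34 and 57.99 TPM in control, where the replicates differed by more than the group means did. CNOT2 (chr12:70242994-70354993, plus strand) stood at 50.39 and 42.15 TPM with the 5p duplex, at 48.83 and 46.28 TPM with the 3p.1 duplex and at 55.30 and 48.42 TPM in control. CNOT3 (chr19:54137717-54155708, plus strand) stood at 43.38 and 46.96 TPM with the 5p duplex, at 48.81 and 44.23 TPM with the 3p.1 duplex and at 51.92 and 43.85 TPM in control. For each of the 3 genes the duplex libraries overlapped with the controls. Relative to the scaffold, CNOT6 stood at 1.10 and 1.05 times the CNOT1 level with the 5p duplex, at 0.636 and 0.618 times with the 3p.1 duplex and at 1.26 and 1.13 times in control.

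CNOT10 and CNOT11, which bind each other and the N-terminal part of CNOT1, also showed no call. CNOT10 (chr3:32685145-32773875, plus strand) stood at 41.33 and 37.71 TPM with the 5p duplex, at 44.61 and 46.24 TPM with the 3p.1 duplex and at 39.43 and 45.92 TPM in control. The 5p duplex lay below the 3p.1 duplex without overlap (-0.20, SE 0.109, limma adjusted p = 0.663). CNOT11 (chr2:101252802-101270316, plus strand) stood at 86.64 and 78.69 TPM with the 5p duplex, at 82.55 and 73.69 TPM with the 3p.1 duplex and at 81.72 and 74.15 TPM in control. CNOT11 had its higher value in replicate 1 of each group, and its groups overlapped.

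CNOT4 (chr7:135361795-135510127, minus strand), a ubiquitin ligase that associates with the complex, was the second scarcest subunit. It stood at 20.02 and 21.32 TPM with the 5p duplex, at 17.58 and 17.22 TPM with the 3p.1 duplex and at 19.21 and 20.85 TPM in control. The 3p.1 duplex libraries were the lowest of the 6. Of all genes, 24.1% lay lower with the 3p.1 duplex than in control without overlap. The CNOT4 difference against control was small and not past the threshold (-0.19, SE 0.101, 95% interval -0.43 to 0.051, limma adjusted p = 0.806). The 5p duplex exceeded the 3p.1 duplex by 0.24 (SE 0.101, 95% interval -0.0076 to 0.48, limma adjusted p = 0.552). CNOT4 was the 1 subunit with an 8mer of GCAGTGG, shown because it is the longest match of that word in the set.
CNOT4, GCAGTGG word, 8mer, chr7:135387687-135387694, minus strand: cttagtttggaGCAGTGGAcaaaagctgat
Of 854 genes with a 3′UTR within 10% of the 2643 nt of CNOT4, 5.27% held such an 8mer.

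CNOT9, the subunit that binds GW182 proteins, was listed too but lies outside the 10. It stood at 92.67 and 95.45 TPM with the 5p duplex, at 87.78 and 84.42 TPM with the 3p.1 duplex and at 90.13 and 94.04 TPM in control. The 3p.1 duplex libraries were the lowest, with a log2 fold change of -0.096 against control (SE 0.0816, limma adjusted p = 0.918), and the gene was not called in any of the 3 comparisons.

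Over the 9 subunits other than CNOT6, fold changes ran from -0.30 (CNOT6L) to 0.16 (CNOT1) with the 5p duplex against control, with adjusted p-values from limma between 0.576 and 0.943. With the 3p.1 duplex against control they ran from -0.19 (CNOT4) to 0.11 (CNOT7), with adjusted p-values from limma between 0.806 and 0.999. Between the 5p and 3p.1 duplexes they ran from -0.26 (CNOT6L) to 0.24 (CNOT4), with adjusted p-values from limma between 0.552 and 0.963. All 95% intervals of these 9 subunits held 0 in each comparison. For the 3p.1 duplex against control the bounds farthest from 0 were -0.43 (CNOT4) and 0.36 (CNOT10), or 0.740 and 1.28 as ratios of TPM + 1. The intervals do not reach the size of the CNOT6 difference, but CNOT6 was chosen on that value, so this is a description alone. Smaller differences could not be told from the spread of 2 libraries per group. The summed level of the 9 was 592 and 536 TPM with the 5p duplex, 575 and 552 TPM with the 3p.1 duplex and 556 and 546 TPM in control.

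**Figure D3:**
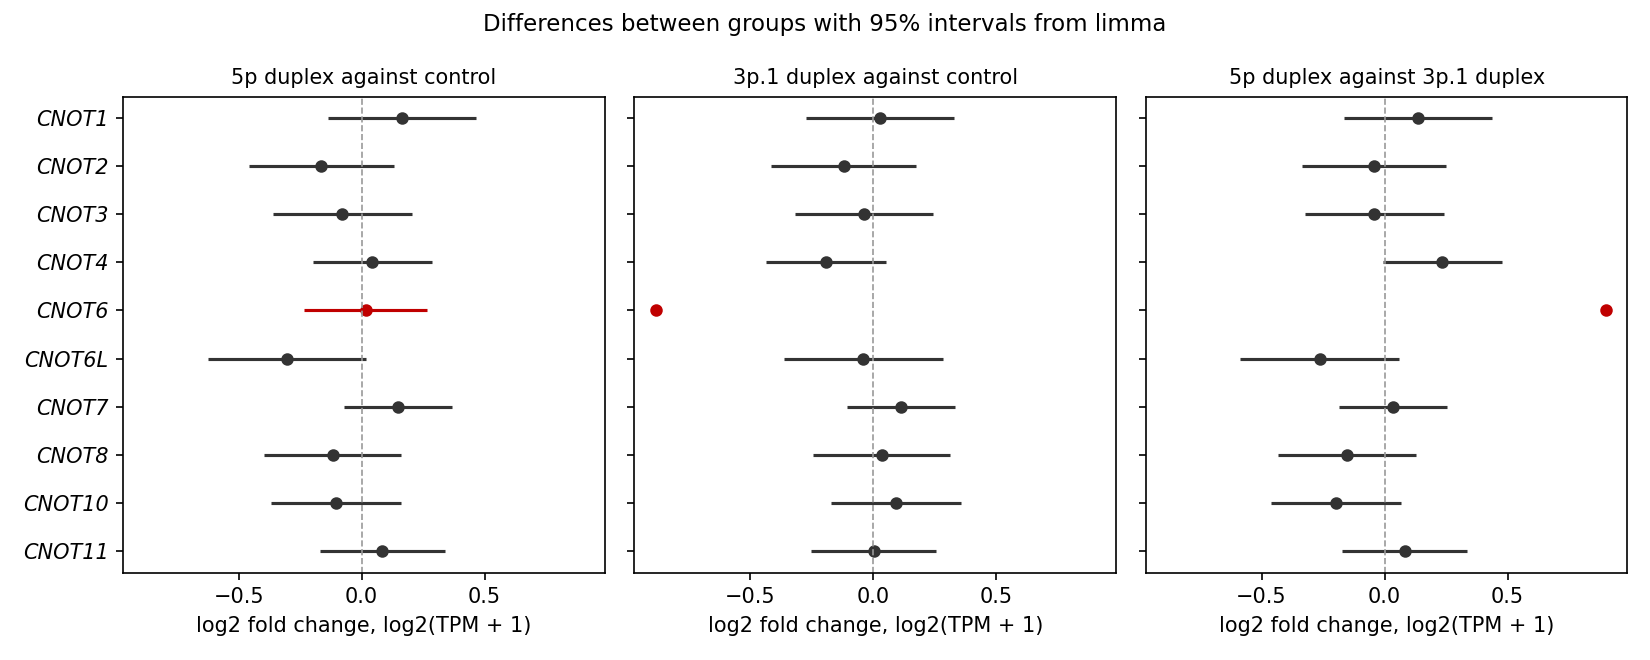
Log2 fold change on the log2(TPM + 1) scale of each subunit in 3 comparisons, with the 95% interval from limma; CNOT6 is in red, with no interval in the comparisons that use the 3p.1 duplex. Intervals of the other 9 subunits hold 0, and CNOT6 lies at -0.88 in the 3p.1 duplex against control and at 0.90 between the 5p and 3p.1 duplexes.

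The median fold change of the 10 subunits was -0.031 with the 5p duplex against control, where that of all genes tested was -0.030. It was -0.017 with the 3p.1 duplex against control, beside -0.033 for all genes, and 0.0028 without CNOT6. It was -0.0030 between the 5p and 3p.1 duplexes, beside 0.0055 for all genes. In each comparison 5 of 10 subunits had negative fold changes. Groups did not overlap for 2 of 10 subunits with the 5p duplex against control, beside 34.8% of all genes, with CNOT7 higher (12.7% of all genes) and CNOT6L lower (22.1%). They did not overlap for 3 of 10 with the 3p.1 duplex against control, beside 36.3% of all genes, with CNOT7 higher (12.1%) and CNOT4 and CNOT6 lower (24.1%). Between the 5p and 3p.1 duplexes they did not overlap for 5 of 10, beside 40.4% of all genes, with CNOT1, CNOT4 and CNOT6 higher (21.0%) and CNOT6L and CNOT10 lower (19.4%). In the comparisons that use the 3p.1 duplex, CNOT6 is among these subunits because it was chosen on those values, which raises the counts. The first of the 3 counts is below the share of all genes, and the others differ from it by no more than about 1 subunit, so they are no result about the complex.

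In order of mean level over the 6 libraries the subunits were CNOT7 (191 TPM), CNOT11 (79.6), CNOT8 (72.7), CNOT1 (54.4), CNOT6 (52.6), CNOT2 (48.6), CNOT3 (46.5), CNOT10 (42.5), CNOT4 (19.4) and CNOT6L (5.09). The range of CNOT7 overlapped with no other, nor did those of CNOT4 and CNOT6L. CNOT11 and CNOT8 overlapped in range, though CNOT11 was the higher in every library. Each neighbouring pair from CNOT1 to CNOT10 overlapped too and changed order between libraries, so the order of these subunits is not settled. CNOT6 varied most, with a highest library 2.04 times the lowest, but it was chosen on the low values that set this ratio. Its place is therefore a description alone. CNOT6L followed at 1.43 times, and the other 8 subunits varied by 1.18 to 1.31 times.

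Some subunits differed between the replicate numbers in the same direction in every group, as many genes did. CNOT2, CNOT6L, CNOT7, CNOT8 and CNOT11 were lower in replicate 2 than in replicate 1 in all 3 groups, which is 5 of 10 subunits beside 22.4% of all genes. None of the 10 was higher in replicate 2 in every group, beside 29.0% of all genes. CNOT6 differed between replicate 2 and replicate 1 by -0.16 with the 5p duplex, 0.048 with the 3p.1 duplex and 0.16 in control on the log2 scale, in no shared direction. The labels tie the replicate number to no batch.

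Sites for the miR-324-5p word GGGATGC were sought in the same way. None of the 10 subunits held a 7mer or 8mer of it, beside 14.6% of the 11747 tested genes with an annotated 3′UTR. A 7mer or 8mer of GCAGTGG was held by 4 subunits (CNOT2, CNOT4, CNOT6 and CNOT7), beside 32.1% of those genes. One of GGCAGTG was held by 2 (CNOT2 and CNOT6L; 30.9%), and one of GGGGCAG by 2 (CNOT6 and CNOT6L; 28.0%). The words overlap: GCAGTG is common to the first pair of 3p words. These counts describe the annotated letters and are no sign of binding.

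Partners of the complex were followed in 4 lists of 55 genes in all, drawn up from general knowledge of the pathway. Of 8 other deadenylases, 20 of 21 listed adaptors, 18 decapping and decay factors and 8 poly(A)-binding proteins tested, 0 were called by limma in any of the 3 comparisons, higher or lower, beside the 0.463%, 0.0149% and 0.433% of all genes given above. At an unadjusted p under 0.05 the counts of these lists were 1, 4, 1 and 0 with the 5p duplex against control (9.16% of all genes), 0, 1, 1 and 1 with the 3p.1 duplex against control (6.86%) and 0, 3, 4 and 1 between the 5p and 3p.1 duplexes (9.34%). Their median fold changes with the 5p duplex against control were 0.023, 0.030, -0.074 and -0.053, beside -0.030 for all genes. With the 3p.1 duplex against control they were -0.024, -0.16, -0.044 and 0.074, beside -0.033 for all genes. Between the 5p and 3p.1 duplexes they were 0.059, 0.050, -0.016 and -0.059, beside 0.0055 for all genes. In the adaptors, 13 of 20 had negative fold changes with the 3p.1 duplex, where 59.0% of all genes did. NANOS1, a germline partner, was the 1 adaptor under the expression minimum.

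Nearest to the threshold among the other deadenylases with the 5p duplex was PAN3, a subunit of the PAN2-PAN3 deadenylase, at 15.16 and 11.59 TPM with the 5p duplex and 20.47 and 17.25 TPM in control (log2 -0.47, limma adjusted p = 0.438). PARN, a poly(A)-specific ribonuclease, was next at 70.98 and 68.27 TPM with the 5p duplex and 61.62 and 65.61 TPM in control (log2 0.13, limma adjusted p = 0.748). Neither group pair overlapped, as was so for 34.8% of all genes, and neither gene passed the threshold. Among adaptors, BICC1 stood at 1.20 and 1.28 TPM with the 5p duplex and 2.06 and 2.04 TPM in control (log2 -0.45, limma adjusted p = 0.401). BTG2, an antiproliferative protein that binds the Caf1-type nucleases, stood at 29.18 and 24.74 TPM with the 5p duplex, at 14.08 and 9.86 TPM with the 3p.1 duplex and at 20.10 and 12.55 TPM in control (log2 0.72 for the 5p duplex against control, limma adjusted p = 0.435). Between the 5p and 3p.1 duplexes BTG2 differed by 1.12 (limma adjusted p = 0.211). Its replicate 1 was higher in every group. Of the decay factors, the Sm-like proteins LSM6 and LSM7 had fold changes of -0.33 and -0.22 (limma adjusted p = 0.542 and 0.646), and of the poly(A)-binding group PABPC4 and LARP4 had 0.20 and 0.21 (limma adjusted p = 0.605 and 0.732).

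With the 3p.1 duplex against control, the 3 partners with an unadjusted p under 0.05 are named after their values were seen. TNKS1BP1, a protein that associates with the complex, stood at 30.95 and 26.64 TPM with the 3p.1 duplex and 47.56 and 38.57 TPM in control (log2 -0.56, limma adjusted p = 0.429). With the 5p duplex TNKS1BP1 stood at 34.17 and 33.95 TPM, also below both controls (log2 -0.32, limma adjusted p = 0.538). Lower TNKS1BP1 was thus seen with both duplexes, in comparisons that share the controls. DCP1B, a decapping cofactor, stood at 7.64 and 5.44 TPM with the 3p.1 duplex and 11.48 and 8.53 TPM in control (log2 -0.55, limma adjusted p = 0.650). Its 5p duplex libraries, at 10.52 and 10.07 TPM, lay between the controls. PABPC4, a cytoplasmic poly(A)-binding protein, stood at 130.43 and 125.49 TPM with the 3p.1 duplex and 110.20 and 104.84 TPM in control (log2 0.25, limma adjusted p = 0.675). With the 5p duplex PABPC4 stood at 130.78 and 116.20 TPM, also above both controls. Libraries of the 3p.1 duplex and control did not overlap in these 3 genes, which were picked by their p-values, nor in 36.3% of all genes. None of the 3 passed the threshold.

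The genes whose pattern was most like that of CNOT6 were sought among 10623 genes averaging 5 TPM or more, by the root mean square distance between centred log2(TPM + 1) values over the 6 libraries. The nearest 5 were TVP23B, TMEM64, EI24, SDF2 and STX3, at distances of 0.060, 0.066, 0.077, 0.090 and 0.097. The median gene lay at 0.44 and the nearest of the other subunits at 0.33. A gene with the same value in every library would lie at 0.425, so the median distance is near that of an unchanged gene. TVP23B stood at 71.92 and 69.21 TPM with the 5p duplex, at 34.78 and 35.63 TPM with the 3p.1 duplex and at 68.88 and 73.39 TPM in control, close to CNOT6 in level as well. EI24 stood at 117.93 and 111.40 TPM with the 5p duplex, at 58.29 and 59.13 TPM with the 3p.1 duplex and at 107.70 and 103.76 TPM in control. TMEM64, SDF2 and STX3 averaged 8.39, 64.6 and 11.6 TPM with the 3p.1 duplex and 17.8, 112 and 21.8 TPM in control. In all 5 genes the 3p.1 duplex libraries were the lowest, as the choice by likeness fixes. TVP23B has a close paralog, and reads common to both make its level uncertain. The measure uses the same 6 libraries for every gene and says nothing of shared control.

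**Figure D4:**
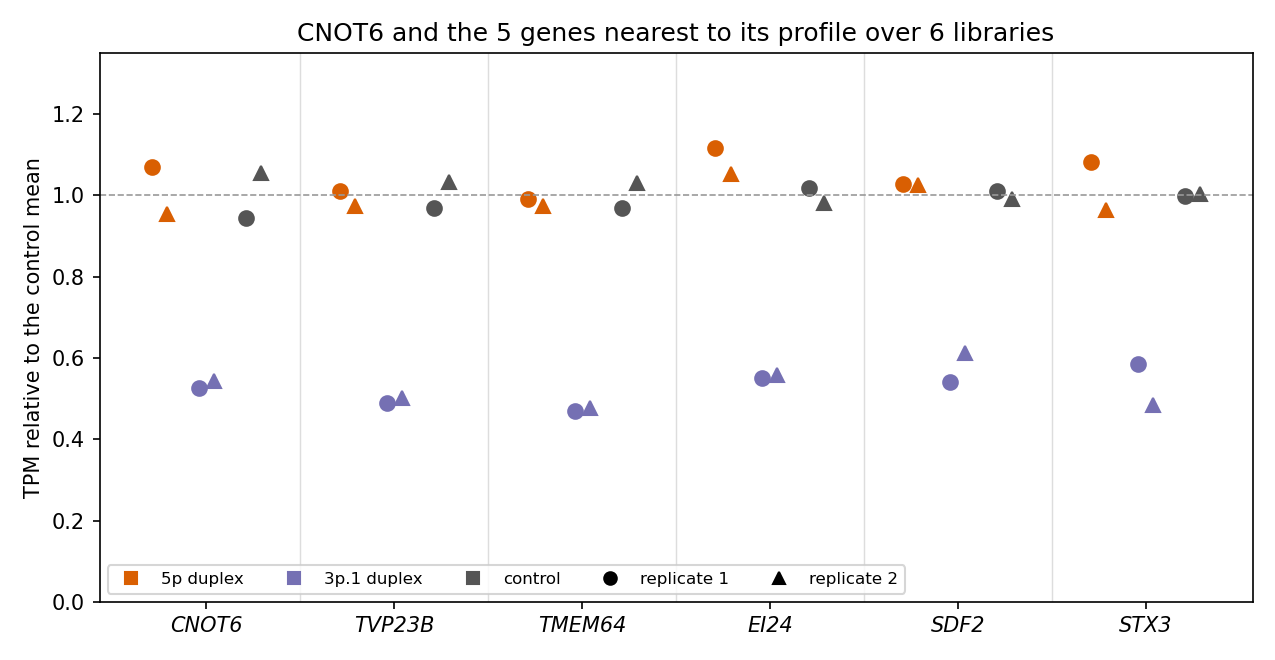
TPM relative to the control mean of the same gene, for CNOT6 and the 5 genes nearest to its profile, in each library. The 3p.1 duplex points lie well below the others in each gene, as for CNOT6 at 32.56 and 33.70 TPM against a control mean of 62.0 TPM.

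The libraries held between 18660 and 19070 symbols, and 13216 to 13536 reached 1 TPM; TPM keeps no read number, so the depth is unknown and no counting interval can be given. Of 8 glial and mesenchymal markers 5 averaged at least 1 TPM (VIM, NES, CD44, FN1 and SOX9), summing over the list to between 5756 and 6818 TPM, while GFAP and TNC were under 1 TPM and S100B was not listed. Of 10 markers of blood, endothelial, epithelial, neuronal and oligodendrocyte cells 3 averaged at least 1 TPM (PTPRC 6.54, EPCAM 2.02, CD14 1.03), and the list summed to between 10.2 and 11.5 TPM in every library. Exons of CNOT1, CNOT2, CNOT3, CNOT7, CNOT8 and CNOT11 overlap those of listed genes on the opposite strand, and no strand setting of the counting is given, so their levels carry that uncertainty; the exons of CNOT6, CNOT6L and CNOT4 overlap no annotated gene.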

How the data were processed

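Polyadenylated RNA of 6 A172 libraries was sequenced as stranded pairs, per the labels' protocols. The authors deposited TPM per gene symbol for each library; RSEM and GRCh38 are named per the submitters' processing notes, with versions, aligner and annotation not given in the sources used here. A symbol missing from a library counted as 0, and rows of the 21 to 23 repeated symbols in each were added. The 13400 genes averaging 1 TPM or more were fitted as log2(TPM + 1) with limma 3.58.1 in R 4.3.3: 1 mean per group over all 6 libraries, variances moderated with a trend (3 residual and 3.38 prior degrees of freedom), Benjamini-Hochberg adjustment over all genes, two-sided, threshold 0.05. The fit was also run on simulated data with independent noise in each library. Same-numbered libraries here deviated together, so that run does not give the error rate of the calls in these data. An exact permutation test of 2 against 2 libraries cannot go below p = 0.333 and was not used. Sites were read from GENCODE 29 transcripts on GRCh38. Named genes were the subunits, CNOT9, called genes or else the 2 with the smallest adjusted p of each partner list (5p duplex against control), and the 5 nearest to CNOT6. Partners with an unadjusted limma p under 0.05 with the 3p.1 duplex against control were added after their values were seen. Members, lists and rules were chosen with earlier results of these data known. Alternatives covered pseudocount, filter, groups, trend, scaling, replicate block and each library left out.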

Additional observations from a re-analysis of the deposited data

How the results depend on the processing

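The CNOT6 difference ran over the 15 alternatives from -0.96 to -0.80 with the 3p.1 duplex against control. Between the 5p and 3p.1 duplexes it ran from 0.82 to 0.98. Both 3p.1 duplex libraries lay below all others, so leaving out 1 library could not turn the sign. The ranges give the size alone. Its place at the limma threshold is not given for these comparisons, since CNOT6 was chosen on these values. Its difference was -0.88 against control with the replicate block. Between the duplexes it was 0.90 without the expression minimum, with the 2 groups alone and with no variance trend. These settings alter the errors and the adjustment alone and leave the difference as it is, so they could not have moved it. No other subunit was called under any alternative. In this balanced design the replicate block leaves fold changes as they are and alters their errors; for the 5 subunits lower in replicate 2 of every group, the SE with the block lay between 0.0656 (CNOT11) and 0.102 (CNOT6L).

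Counts of all genes called moved more. With the 5p duplex against control the 62 genes became 9 with no filter, 29 with only the 2 groups, 33 with no trend and 367 with the replicate block, and 2 to 137 without 1 library. With the 3p.1 duplex against control the 2 genes became 0, 19 and 30 with no filter, with only the 2 groups and with the block, and 6 to 95 without 1 library. Between the duplexes the 58 genes became 5, 28, 5 and 278 with no filter, only the 2 groups, no trend and the block, and 5 to 26 without 1 library. Same-numbered libraries deviated together across genes (correlations of 0.265 to 0.383 between groups), but the labels tie the number to nothing. The cause of these moves was not tested.

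Fold changes of uncalled subunits turned sign without 1 library. With the 5p duplex against control the ranges were -0.21 to 0.0018 (CNOT10), -0.20 to 0.041 (CNOT3), -0.013 to 0.10 (CNOT4), -0.064 to 0.099 (CNOT6) and -0.24 to 0.0047 (CNOT8). With the 3p.1 duplex against control they were -0.13 to 0.19 (CNOT1), -0.016 to 0.20 (CNOT10), -0.078 to 0.084 (CNOT11), -0.16 to 0.082 (CNOT3), -0.10 to 0.025 (CNOT6L; 0.076 with quantile normalization) and -0.048 to 0.12 (CNOT8). Between the duplexes they were -0.17 to 0.082 (CNOT2), -0.11 to 0.029 (CNOT3) and -0.056 to 0.13 (CNOT7).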
